A study of Rattus norvegicus with 16 samples.

Results

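Rats that had recovered from zinc deficiency were compared with their own pair-fed controls in the diencephalon, which comprises thalamus and hypothalamus. The comparison was defined by the labelled groups of the 16-day experiment, ZR and ZRPF, and took 8 of the 16 arrays of the series, 4 in each group. All animals were male Sprague-Dawley (SD) rats, 5 weeks old when the diets began and individually housed, and each array held the RNA of 1 rat. ZR rats (numbers 7, 10, 13 and 15) had free access for 10 days to food containing 0.6 mg zinc per kg. ZRPF rats (numbers 2, 4, 5 and 6) were given a diet with 30 mg zinc per kg over the same days, in amounts matched to what the deficient rats ate. Both groups then received 13 g of the zinc-sufficient diet for 6 days, so at the end they differed in their diet history and not in their current ration. Both had also been offered 300 mM NaCl in preference tests on days 6 to 8 and 14 to 16. The remaining 8 arrays came from a 10-day experiment in which zinc-deficient rats (ZD) and pair-fed rats (PF) were killed without recovery, and they served for comparison.

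Several features limit the groups as models of recovery. The experiment began with 9 rats on the deficient diet and 6 pair-fed rats. The submitters removed 3 ZR rats and 1 ZRPF rat on their salt preference, then picked 4 rats per group as average in body weight, plasma zinc and salt preference. The p-values therefore measure the spread between these selected rats. All pair-fed rats also ate less than they would have eaten freely, so reduced intake was shared by both groups. With 4 arrays against 4, the smallest two-sided p of an exact permutation test is 0.0286.

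Zinc is a cofactor of many enzymes and transcription factors and is stored in synaptic vesicles of some glutamatergic neurons. Cells take it into the cytosol through importers of the Slc39a (ZIP) family, move it out or into organelles through exporters of the Slc30a (ZnT) family, and buffer it with metallothioneins, whose genes are switched on by the zinc-sensing factor MTF1. In the hypothalamus, zinc deficiency is known for reduced food intake, and the same region holds neurons for feeding, salt appetite and stress hormones.

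The 8 arrays were alike in overall brightness and in their profiles. Median signals ran from 163.5 to 172.4 units, after a scaling by the authors that gave every array the same trimmed mean. Pearson's r of log2 signals was 0.978 to 0.985 for pairs within a group and 0.975 to 0.985 for pairs across the groups. The first principal component of the 8 arrays, 24.0% of their variance, did not separate the groups. Markers of the labelled tissue were present: 9 of 9 thalamic and 8 of 11 hypothalamic markers were above the expression filter, and of 4 telencephalic markers none of the 3 on the array was, while 4 genes of a wider list of 11 were. The ratio of 5 prime to 3 prime signal for beta-actin, a measure of RNA integrity, was 0.179 to 0.242 in ZRPF and 0.218 to 0.241 in ZR (exact permutation p = 0.2). In the 8 arrays of the 10-day experiment it was higher, 0.302 to 0.386, without overlap with the 16-day arrays. The same ratio for GAPDH was 0.899 to 0.968 at 10 days, 0.812 to 0.904 in ZRPF and 0.818 to 0.870 in ZR. For hexokinase the experiments overlapped widely, with 0.374 to 0.712 at 10 days, 0.368 to 0.566 in ZRPF and 0.375 to 0.434 in ZR. Levels set across the experiments below carry the beta-actin difference, whose part in them was not tested. Choroid plexus tissue, a secretory epithelium of the ventricles, was present in very unequal amounts. *Ttr* (transthyretin), its most abundant marker, had signals of 524, 2111, 21240 and 16652 in ZRPF rats 2, 4, 5 and 6 and of 327, 19957, 510.5 and 12967 in ZR rats 7, 10, 13 and 15. High and low rats occurred in both groups. In bulk tissue, fewer cells of a type and less RNA per cell cannot be told apart.

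One gene differed between recovered and pair-fed rats. *Clstn3*, which encodes calsyntenin-3, a cadherin-family adhesion protein of the postsynaptic membrane that takes part in synapse formation, was lower after recovery. Its signals were 915, 756, 512 and 581 in ZRPF rats 2, 4, 5 and 6 and 145, 180, 299 and 232 in ZR rats 7, 10, 13 and 15. Every ZR array lay below every ZRPF array, with the nearest pair 299 against 512. Group means of the log2 signal were 9.40 ± 0.38 for ZRPF and 7.69 ± 0.45 for ZR (SD, n = 4 each). The difference was -1.71 ± 0.26 (SE) on the log2 scale, and the geometric mean of ZRPF was 3.27-fold that of ZR. The adjusted p was 0.046 (limma, Benjamini-Hochberg over 15521 probe sets), and the exact permutation p was 0.0286, the smallest possible here.

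*Clstn3* was the only one of the 15521 tested probe sets past the threshold of 0.05 (0.00644%). The call was narrow. It was lost with quantile normalization (adjusted p = 0.054, limma), without an expression filter (0.0913), with the 8 arrays fitted alone (0.098) and without an intensity trend (0.121). Leaving out ZRPF rat 2, 4 or 5, or ZR rat 7, 10 or 15, gave adjusted p-values of 0.345, 0.268, 0.0501, 0.296, 0.314 and 0.136, while the log2 fold change stayed between -1.89 and -1.54 in every setting tried. In the 10-day experiment its signals were 269, 191, 241 and 333 in PF and 288, 201, 241 and 467 in ZD. The ZR arrays therefore overlapped with both 10-day groups, and the ZRPF arrays stood above every other array of the series, across experiments that also differed in the beta-actin ratio. Of the relatives of *Clstn3*, *Clstn1*, the abundant neuronal calsyntenin that links cargo to kinesin, had signals of 8856 to 9715 in ZRPF and 8562 to 8972 in ZR (log2 fold change -0.10 ± 0.06, limma adjusted p = 0.927), and *Clstn2* was below the expression filter, at 51.7 to 114 in ZRPF and 64.1 to 90.5 in ZR.

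**Figure D1:**
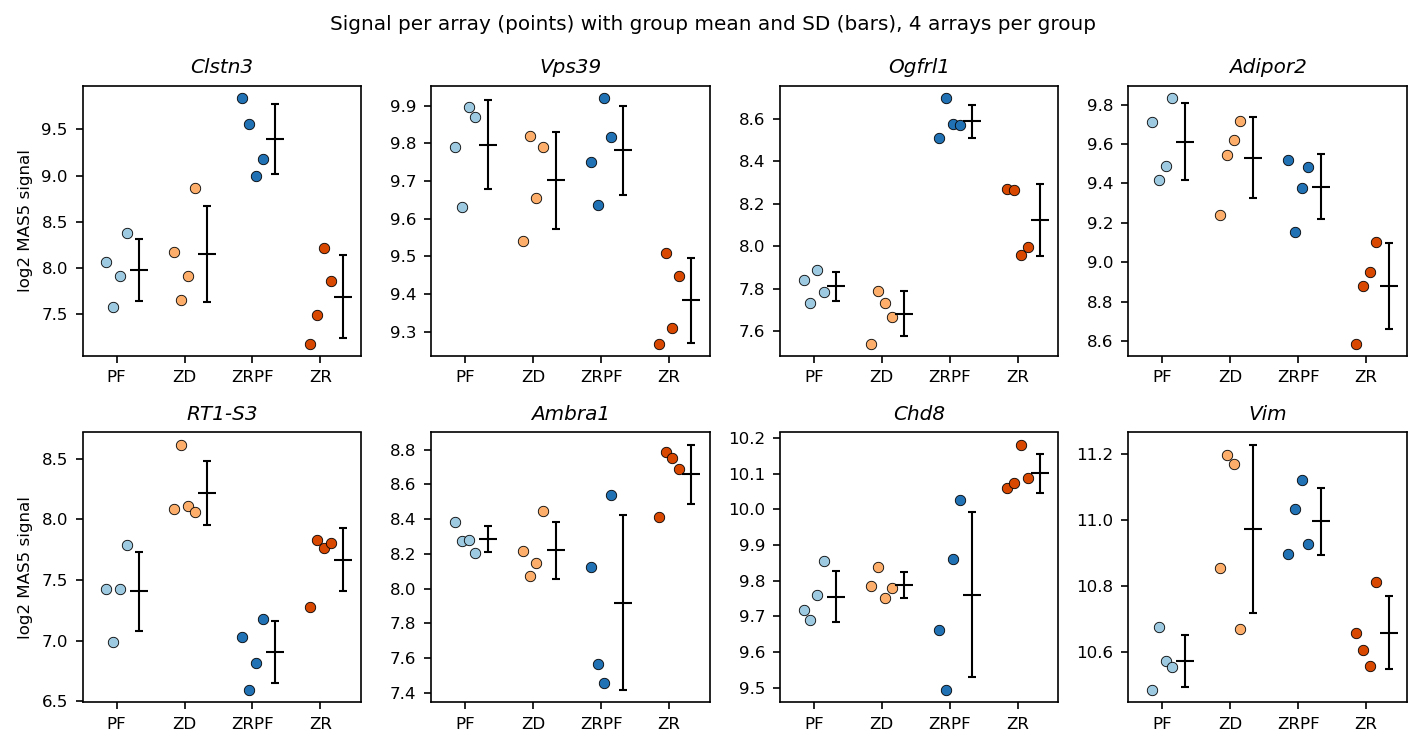
Log2 MAS5 signal (vertical axis) of 8 named genes in each array of the 4 groups (horizontal axis), points for single rats and bars for group mean and SD. *Clstn3* is the only one past the threshold, and its ZRPF arrays (512 to 915 units) stand above all others, while *RT1-S3* is higher in ZD than in PF as well as in ZR than in ZRPF.

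The sequence just before the *Clstn3* start site is shown with that of *Mt2A*, a metallothionein gene of the type that zinc switches on, because the metal response element (MRE) is the motif through which MTF1 acts. The motif was searched as TGCACNC or TGCGCNC on both strands in the RefSeq windows of GRCr8 from 250 bases before to 50 bases after the start site. The 250 bases before the start site are printed 5 prime to 3 prime on the gene's strand, with matches in capitals. A match on the opposite strand appears as its reverse complement. *Clstn3* lies at chr4:159051070-159051319 on the minus strand and *Mt2A* at chr19:10838709-10838958 on the minus strand.
Clstn3: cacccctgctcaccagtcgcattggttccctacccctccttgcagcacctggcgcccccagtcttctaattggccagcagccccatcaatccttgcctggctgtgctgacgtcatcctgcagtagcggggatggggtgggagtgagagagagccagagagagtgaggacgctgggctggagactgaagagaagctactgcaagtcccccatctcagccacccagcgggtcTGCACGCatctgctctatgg
Mt2A: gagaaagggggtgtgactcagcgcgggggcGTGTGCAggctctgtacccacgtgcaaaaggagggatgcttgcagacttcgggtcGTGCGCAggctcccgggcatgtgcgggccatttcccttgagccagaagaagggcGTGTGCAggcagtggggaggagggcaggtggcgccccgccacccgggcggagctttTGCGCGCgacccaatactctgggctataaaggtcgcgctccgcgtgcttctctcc
*Clstn3* had 1 match, whose first base is 20 bases before the start site, and *Mt2A* had 4, at 220, 165, 111 and 55 bases before it. The motif is short, and 6864 of 27457 promoter windows (25%) held at least 1 match. A match is a description of the letters only.

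With *Clstn3* included, 808 probe sets (5.21%) reached an unadjusted p under 0.05, against 776 under no difference at all. In ZR 395 (2.54%) were higher and 413 (2.66%) lower. After *Clstn3* the smallest adjusted p was 0.927 (limma). None of the other genes described from here on therefore passed the threshold, and their values are given as measured. The arrays of the groups did not overlap for 462 probe sets (2.98%) and for 262 of 9278 genes (2.82%), each gene taken at its brightest tested probe set. Unadjusted p-values under 0.05 were found for 446 genes (4.81%), 212 on the higher side (2.28%) and 234 on the lower side (2.52%).

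**Figure D2:**
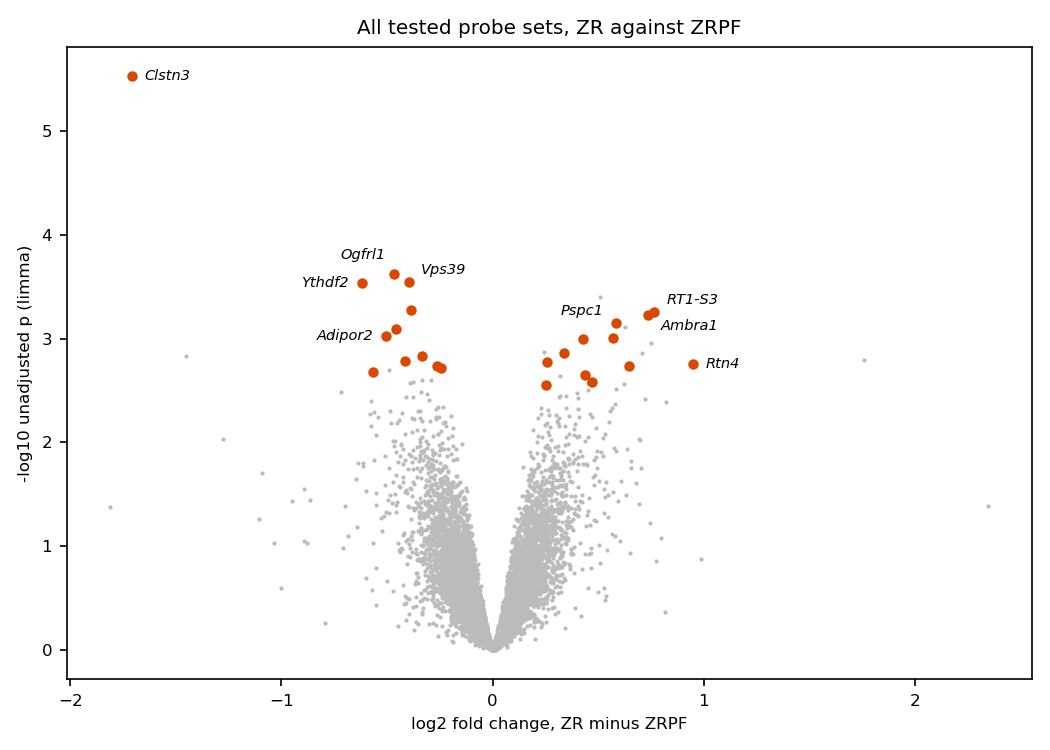
Log2 fold change of ZR minus ZRPF (horizontal axis) against -log10 of the unadjusted limma p (vertical axis) for the 15521 tested probe sets. Orange points are the 12 genes of smallest p in each direction, grey points all other probe sets, and *Clstn3* stands alone at -1.71.

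On the lower side in ZR, the genes of smallest p after *Clstn3* came from several cell functions. *Ogfrl1*, an opioid growth factor receptor-like gene, had signals of 365, 415, 381 and 380 in ZRPF rats 2, 4, 5 and 6 and of 309, 307, 248 and 255 in ZR rats 7, 10, 13 and 15. *Vps39*, a subunit of the HOPS complex that tethers late endosomes to lysosomes, had 862, 796, 968 and 902 in ZRPF and 617, 729, 635 and 698 in ZR. In both genes the groups were separated without overlap, and the log2 fold changes were -0.47 ± 0.10 and -0.40 ± 0.09. The level of *Ogfrl1* in ZR (8.12 ± 0.17, SD, n = 4, log2) lay between ZRPF (8.59 ± 0.08) and the 10-day groups (7.81 in PF and 7.68 in ZD). For *Vps39* the 10-day groups stood with ZRPF instead, at 9.80 in PF and 9.70 in ZD against 9.78 in ZRPF and 9.38 in ZR.

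*Adipor2*, a receptor of the fat-derived hormone adiponectin, had signals of 733, 569, 666 and 716 in ZRPF and 384, 471, 494 and 551 in ZR. All 4 ZR arrays were below all 12 other arrays of the series, the lowest of which was ZRPF rat 4. Its log2 fold change was -0.50 ± 0.13, and a second tested probe set of the gene stood at -0.14 ± 0.17. *Kif5a*, a kinesin motor of neuronal axons, had 1254, 1722, 1409 and 1538 in ZRPF and 942, 1137, 1017 and 1211 in ZR, without overlap (-0.46 ± 0.11). Its brightest probe set stood at -0.09 ± 0.08 and the other tested one at -0.01 ± 0.18.

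The other genes of this group, all without overlap, were *Ythdf2*, a reader of methylated adenosine in mRNA (-0.62 ± 0.14), *Pdcd11*, a factor of ribosomal RNA processing (-0.39 ± 0.09), and *Galnt1*, which starts O-linked glycosylation of proteins (-0.34 ± 0.09). *Fcsk*, the kinase that salvages fucose, stood at -0.42 ± 0.11, *Ubr2*, a ubiquitin ligase, at -0.26 ± 0.07, *Scoc*, a coiled-coil protein of the Golgi, at -0.24 ± 0.07, and *Ssr1*, a subunit of the translocon-associated protein complex of the endoplasmic reticulum, at -0.57 ± 0.16. Probe sets of one gene often differed. A second probe set of *Ythdf2* stood at 0.28 ± 0.12, the opposite direction, and the brightest ones of *Scoc* (-0.04 ± 0.06) and *Ssr1* (-0.11 ± 0.06) were nearer to 0.

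On the higher side in ZR, the smallest p among named genes belonged to *RT1-S3*, a class I molecule of the rat major histocompatibility complex. Its signals were 131, 96.5, 113 and 145 in ZRPF rats 2, 4, 5 and 6 and 155, 227, 218 and 223 in ZR rats 7, 10, 13 and 15. The groups did not overlap, although ZR rat 7 lay close to ZRPF rat 6. The log2 fold change was 0.76 ± 0.18, and it was 0.75 ± 0.19 and 0.63 ± 0.16 on the other tested probe sets of the gene, again without overlap. In the 10-day experiment the same 3 probe sets stood at 0.81 ± 0.18, 0.92 ± 0.19 and 0.64 ± 0.16 in ZD against PF. Class I genes of the rat are near-identical copies of each other, so which of them these probe sets measured is uncertain.

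*Ambra1*, an activator of autophagy, had signals of 279, 190, 175 and 371 in ZRPF and 341, 441, 430 and 412 in ZR. *Pspc1*, a paraspeckle protein that binds RNA in the nucleus, had 884, 894, 879 and 1345 in ZRPF and 1613, 1412, 1649 and 1259 in ZR. *Rtn4*, the gene of the neurite growth inhibitor Nogo, had 1125, 616, 782 and 2180 in ZRPF and 1521, 2156, 2222 and 2249 in ZR. In these 3 genes and in *Fbxw2*, a substrate receptor of a ubiquitin ligase, ZRPF rat 6 lay within the ZR range or above it, while the other ZRPF rats lay below every ZR rat.

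The log2 fold changes were 0.74 ± 0.18 for *Ambra1*, 0.58 ± 0.14 for *Pspc1*, 0.95 ± 0.26 for *Rtn4* and 0.65 ± 0.18 for *Fbxw2*. Without ZRPF rat 6 they were 0.94, 0.74, 1.30 and 0.88, with adjusted p-values of 0.0196, 0.0384, 0.00833 and 0.014 (limma), and 9 probe sets in all passed the threshold, among them *Clstn3* and a second probe set of *Fbxw2*. The 10-day groups stood with ZR for *Pspc1* (10.50 in PF and 10.58 in ZD, against 10.53 in ZR and 9.94 in ZRPF, log2). For *Rtn4* they stood above both 16-day groups (11.60 and 11.67 against 10.97 in ZR and 10.03 in ZRPF). The brightest probe set of *Rtn4*, with signals of 8501 to 10923, gave 0.07 ± 0.08.

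Of the other genes on this side, *Chd8*, a chromatin remodeller, had 810, 720, 930 and 1042 in ZRPF and 1068, 1077, 1161 and 1089 in ZR. The ZR rats were close together and just above ZRPF rat 6 (log2 fold change 0.34 ± 0.09). *Pnn*, a nuclear protein associated with splicing factors, stood at 0.57 ± 0.15, and its other tested probe set at 0.72 ± 0.22. *Cfdp1*, a chromatin factor, stood at 0.26 ± 0.07, *Igsf3*, an immunoglobulin-family membrane protein, at 0.47 ± 0.13, *Cep57l1*, a centrosomal protein, at 0.44 ± 0.12, and *Upf3a*, a factor of nonsense-mediated mRNA decay, at 0.26 ± 0.07, each without overlap. *Idi1*, an isomerase of cholesterol synthesis, stood at 0.43 ± 0.11 on one probe set and at 0.04 ± 0.07 on its brightest.

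Among the 10 tested probe sets that differed by more than 1 on the log2 scale in either direction, only 3 had no overlap between the groups. These were *Clstn3*, a probe set with no single gene listed, and *Ogn*, which encodes osteoglycin, a proteoglycan of the extracellular matrix. *Ogn* had signals of 334, 317, 351 and 511 in ZRPF and 175, 126, 223 and 112 in ZR, which gives -1.28 ± 0.44 on the log2 scale. Its other tested probe sets stood at 0.80 ± 0.43 and -0.02 ± 0.29, so the gene had no common direction. Smaller differences without overlap were those of *Rgs17*, a regulator of G protein signalling (-0.54 ± 0.17, its other 4 probe sets -0.09 to 0.14), *Fbxo15*, an F-box protein (0.70 ± 0.24), *Synm*, an intermediate filament protein (0.61 ± 0.25), and *Sos1*, an activator of Ras (0.47 ± 0.15).

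Zinc importers stood slightly on the higher side after recovery, while exporters were split and both tested metallothioneins had negative log2 fold changes, that of *Mt2A* with a sign that turned when single rats were left out. All 8 tested importers of 14 listed had a positive log2 fold change, against 46.9% of all genes. An unadjusted p under 0.05 was found for 2 of them (2.28% of all genes on that side), and none was without overlap (2.82% of all genes). Their median was 0.06, beside -0.01 for all 9278 genes. The list's mean deviation per array was -0.15, -0.10, 0.00 and -0.02 in ZRPF rats 2, 4, 5 and 6 and 0.00, 0.08, 0.05 and 0.13 in ZR rats 7, 10, 13 and 15. The ZR rats lay above the ZRPF rats, with ZRPF rat 5 and ZR rat 7 almost level. The count was less firm than the median: without ZRPF rat 4 or without ZR rat 15, 5 of 8 were higher.

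*Slc39a7*, which releases zinc from the endoplasmic reticulum, had signals of 702, 743, 1180 and 854 in ZRPF and 1080, 1193, 1145 and 1382 in ZR. *Slc39a1*, an importer of the plasma membrane, had 1130, 1243, 1145 and 1523 in ZRPF and 1383, 1563, 1469 and 1638 in ZR. In each gene 1 ZRPF rat reached into the ZR range, rat 5 for *Slc39a7* and rat 6 for *Slc39a1*. Their log2 fold changes were 0.49 ± 0.16 and 0.27 ± 0.09, and in the 10-day experiment 0.43 ± 0.16 and 0.10 ± 0.09. *Slc39a6* stood at 0.15 ± 0.11. *Slc39a10*, an importer known for its rise in zinc-poor cells, stood at 0.00 ± 0.06 after recovery with a direction that turned under several settings, and at 0.25 ± 0.06 in the 10-day experiment.

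Of 6 tested exporters 3 were on each side, led by *Slc30a5* (-0.19 ± 0.12) and *Slc30a6* (-0.14 ± 0.09), which load zinc into the secretory pathway. *Mt2A*, whose promoter is shown above, had signals of 1934, 1507, 945 and 1231 in ZRPF and 974, 1706, 1145 and 1437 in ZR. Its log2 fold change of -0.08 ± 0.19 changed sign without ZRPF rat 2 or ZR rat 7. *Mt3*, the metallothionein of neurons and astrocytes, stood at -0.16 ± 0.10 with signals of 13992 to 18147 in ZRPF and 11513 to 16301 in ZR. Mt1 and *Slc30a1* were below the expression filter.

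None of the tested feeding and salt genes passed the threshold. *Npvf*, the precursor of RFamide-related peptides, had signals of 161, 163, 172 and 118 in ZRPF and 210, 207, 176 and 199 in ZR, without overlap (log2 fold change 0.38 ± 0.15). It was the 1 of 5 tested appetite-stimulating peptides with an unadjusted p under 0.05 (2.28% of all genes on the higher side). *Npy*, neuropeptide Y, stood at -0.16 ± 0.11, its receptor *Npy1r* at -0.02 ± 0.12 (with a sign that turned without ZRPF rat 2 or ZR rat 15), and *Cartpt*, an appetite-reducing peptide, at -0.07 ± 0.13. Of 8 tested appetite-reducing peptides 3 were on the higher and 5 on the lower side. Of 7 tested receptors 6 were on the lower side, against 53.1% of all genes. They were led by *Adipor2*, the 1 among them with an unadjusted p under 0.05 (2.52% of all genes on that side).

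Of 9 genes of salt and water balance 7 were on the lower side (median -0.16), against 53.1% of all genes. None had an unadjusted limma p under 0.05. *Oxt*, the neurohypophysial hormone oxytocin, had signals of 8385, 8172, 7334 and 7296 in ZRPF and 7031, 6315, 5518 and 6820 in ZR. Its groups did not overlap, but the shared estimate of spread was wide (-0.28 ± 0.23). *Avp*, vasopressin, stood at -0.24 ± 0.29, *Tac1*, the precursor of substance P, at -0.16 ± 0.10, and *Agt*, angiotensinogen, at -0.15 ± 0.09.

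Genes induced by glucocorticoids, the adrenal stress hormones, were on the lower side in ZR in 18 of 18 tested, against 53.1% of all genes, with a median of -0.27. In the 10-day experiment the same 18 of 18 were lower in ZD than in PF, with a median of -0.35, against 44.4% of all genes. Like all lists here, this one was chosen with earlier results of these data known, so the counts are descriptions and no independent evidence. Between ZR and ZRPF, 2 of the 18 had an unadjusted p under 0.05 (the share on the lower side over all genes is 2.52%). In that comparison 2, *Gjb6* and *Per1*, had no overlap (2.82% of all genes). *Arrdc2*, an arrestin-domain gene, stood at -0.36 ± 0.17, *Gjb6*, the gap junction protein subunit of astrocytes, at -0.30 ± 0.14, *Fam107a*, an actin-binding stress protein, at -0.29 ± 0.14, and *Tsc22d3*, known as GILZ, at -0.19 ± 0.10. In *Gjb6* the signals were 2153 to 2584 in ZRPF and 1682 to 2140 in ZR.

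The pair-fed rats were widely spread in this list. The mean deviation was 0.36, -0.09, -0.06 and 0.34 in ZRPF rats 2, 4, 5 and 6 and -0.30, -0.09, -0.16 and -0.01 in ZR rats 7, 10, 13 and 15. ZRPF rats 2 and 6 stood above all others, and ZRPF rats 4 and 5 lay within the ZR range. In *Arrdc2*, for example, signals were 1094, 681, 663 and 1032 in ZRPF and 624, 616, 694 and 704 in ZR. Leaving out any 1 of the 8 rats left 16 to 18 of 18 genes on the lower side and a median of -0.33 to -0.23. The motif of the glucocorticoid receptor, searched as GNACA and TGTNC with 3 free bases between them on both strands, was found in 1 of 18 promoter windows of the list (5.56%), that of *Fam107a*, and in 116 of all 27457 (0.422%). The list holds genes known for induction by glucocorticoids and the share rests on a single window, so the motif says nothing about the present samples.

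**Figure D3:**
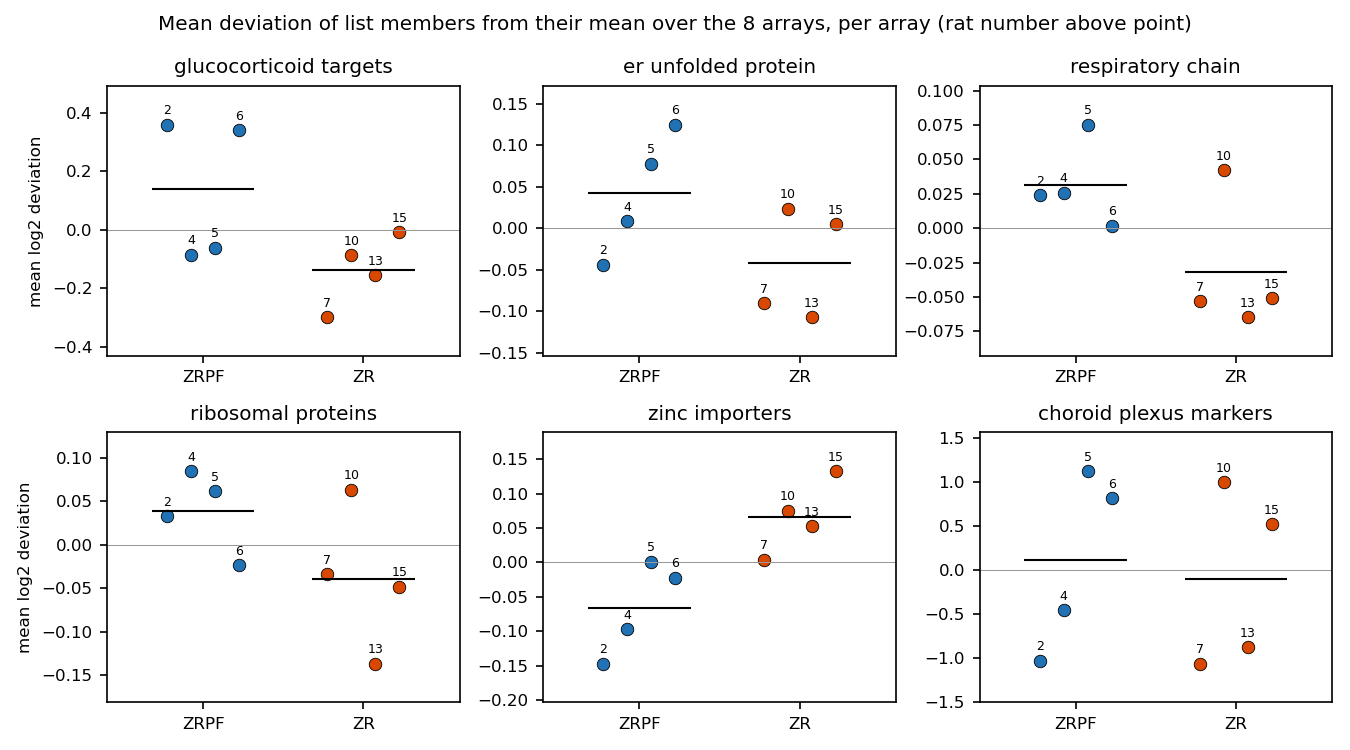
Mean log2 deviation of the members of 6 gene lists from their own mean over the 8 arrays (vertical axis), one point per rat with its number, for ZRPF and ZR (horizontal axis), horizontal bars for group means. In the glucocorticoid panel ZRPF rats 2 and 6 (0.36 and 0.34) stand apart, and in the choroid plexus panel both groups hold high and low rats.

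Chaperones and folding factors of the endoplasmic reticulum, which cells raise when unfolded proteins accumulate there, were on the lower side in 17 of 23 tested, against 53.1% of all genes, with a median of -0.09. Of these, 4 had an unadjusted p under 0.05 on the lower side (2.52% of all genes) and 1 on the higher (2.28%). At 10 days 21 of 23 were lower in ZD than in PF (median -0.10), against 44.4% of all genes. *Xbp1*, the transcription factor of this response, had signals of 3491, 3500, 3583 and 3754 in ZRPF and 2982, 3329, 2730 and 3182 in ZR. *Dnajc3*, a co-chaperone, had 415, 487, 469 and 491 in ZRPF and 352, 405, 401 and 372 in ZR. Both had no overlap, with log2 fold changes of -0.23 ± 0.08 and -0.28 ± 0.10.

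*Creld2*, a secreted-pathway folding factor, stood at -0.39 ± 0.14 and *Pdia6*, a protein disulfide isomerase, at -0.14 ± 0.06. *Dnajb11*, another co-chaperone, stood on the other side at 0.19 ± 0.09. The count on the lower side depended on single rats, with 12 of 23 without ZR rat 7 (median -0.01) and 14 of 23 without ZRPF rat 6 (median -0.03). With the choroid plexus level as a covariate the median was -0.05.

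The promoters of *Xbp1*, *Creld2* and *Dnajc3* are printed because they hold the endoplasmic reticulum stress element (ERSE), the motif through which ATF6 and XBP1 act with NF-Y. It was searched as CCAAT and CCACG with 9 free bases between them on both strands, and the matches are in capitals. The windows are the 250 bases before the RefSeq start sites in GRCr8: *Xbp1* at chr14:84604373-84604622, *Creld2* at chr7:121789134-121789383 and *Dnajc3* at chr15:102432417-102432666, all on the plus strand.
Xbp1: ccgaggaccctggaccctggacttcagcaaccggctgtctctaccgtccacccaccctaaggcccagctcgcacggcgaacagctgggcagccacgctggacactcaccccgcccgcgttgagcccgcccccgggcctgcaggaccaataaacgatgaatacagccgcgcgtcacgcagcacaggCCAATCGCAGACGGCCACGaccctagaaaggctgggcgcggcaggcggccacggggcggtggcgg
Creld2: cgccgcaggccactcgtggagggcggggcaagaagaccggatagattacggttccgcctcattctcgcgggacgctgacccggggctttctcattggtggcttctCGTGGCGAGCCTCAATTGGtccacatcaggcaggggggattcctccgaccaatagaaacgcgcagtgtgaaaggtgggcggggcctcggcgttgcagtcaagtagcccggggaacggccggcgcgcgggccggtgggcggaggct
Dnajc3: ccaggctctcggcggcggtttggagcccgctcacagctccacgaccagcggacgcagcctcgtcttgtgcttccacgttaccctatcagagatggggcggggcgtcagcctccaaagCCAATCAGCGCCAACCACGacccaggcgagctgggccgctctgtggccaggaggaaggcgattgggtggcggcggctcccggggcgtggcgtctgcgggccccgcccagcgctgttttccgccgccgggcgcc
The match began 65 bases before the start site in *Xbp1*, 145 in *Creld2* and 133 in *Dnajc3*, and in *Creld2* it lay on the opposite strand. Promoter windows were found for 19 of the 23 tested genes, and 7 of these (36.8%) held the motif, against 21 of all 27457 windows (0.0765%). The list was assembled from genes known for this response, so the motif says nothing about the present samples.

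Cytosolic heat shock genes were on the lower side in 13 of 16, against 53.1% of all genes. Their median of -0.10 was -0.03 without ZR rat 13 and -0.06 without ZRPF rat 5. None on the lower side had an unadjusted p under 0.05. At 10 days 16 of 16 were lower in ZD than in PF (median -0.18), against 44.4% of all genes. The small heat shock protein *Cryab* stood at -0.32 ± 0.18, and *Hspa4*, a nucleotide exchange factor of Hsp70, on the higher side at 0.25 ± 0.11. Of 16 clock genes 7 were on the lower side (median 0.01), among them *Per2* (-0.24 ± 0.09, with 1 ZRPF rat in the ZR range).

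Abundant housekeeping genes lay slightly on the lower side in ZR. Of 55 tested subunits of the respiratory chain and ATP synthase, 53 were on the lower side in ZR (median -0.06), and of 30 cytosolic ribosomal proteins 29 (median -0.07). The share on that side over all genes was 53.1%. Members with an unadjusted p under 0.05 numbered 4 and 2, all on the lower side (2.52% of all genes). Those without overlap were *Sdhc* and *Ndufb4* in the first list and *Rps15* and *Rack1* in the second (2.82% of all genes). *Sdhc*, a subunit of complex II, had signals of 5444 to 5720 in ZRPF and 4434 to 5188 in ZR (-0.19 ± 0.07), *Ndufb4* of complex I 10691 to 13262 and 9940 to 10604 (-0.17 ± 0.07), and *Rps15* 6888 to 7373 and 6087 to 6517 (-0.17 ± 0.07). *Ndufb8* (-0.27 ± 0.12), *Atp5po* (-0.14 ± 0.07) and *Rpl4* (-0.14 ± 0.06) overlapped.

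Per array the respiratory list deviated by 0.00 to 0.08 in ZRPF and by -0.05, 0.04, -0.06 and -0.05 in ZR rats 7, 10, 13 and 15, so ZR rat 10 lay with the pair-fed rats. The ribosomal list was lowest in ZR rat 13 (-0.14) and again overlapped, with ZR rat 10 at 0.06. After quantile normalization 43 of 55 and 20 of 30 members were on the lower side, with medians of -0.04 and -0.02. In the 10-day experiment the medians were 0.01 and 0.04.

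**Figure D4:**
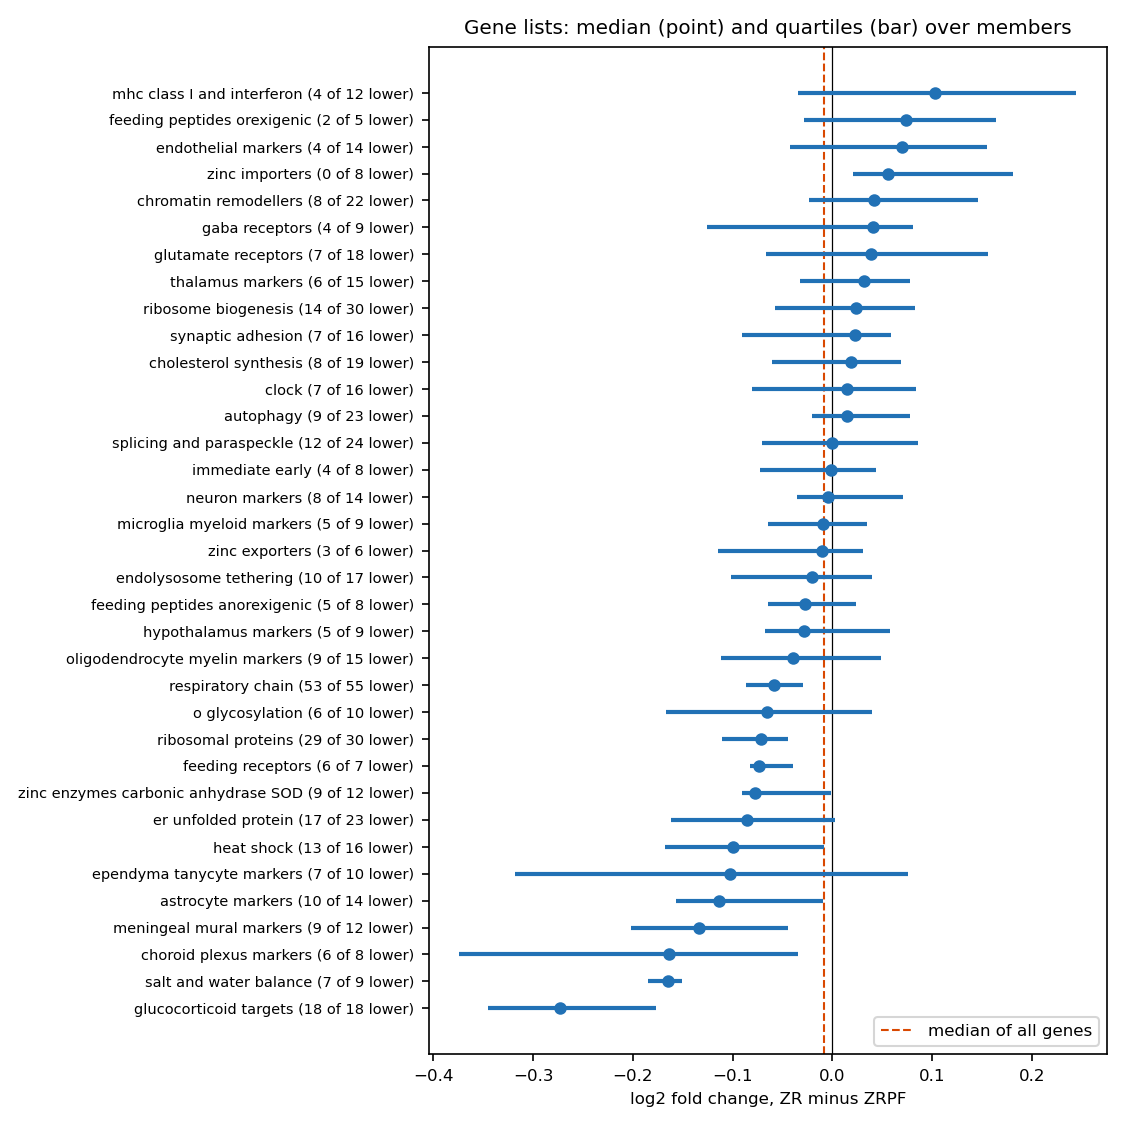
Median (point) and quartiles (bar) of the log2 fold changes of ZR minus ZRPF (horizontal axis) over the tested members of each gene list with at least 5 of them (vertical axis). The dashed line marks the median of all genes (-0.01), and glucocorticoid-induced genes have the lowest median (-0.27) of the lists shown.

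The remaining lists are given by the named genes they hold. Their counts stand beside 46.9% of all genes on the higher side and 53.1% on the lower. These lists too were chosen with earlier results of these data known, and they hold genes of smallest p in this same comparison. More members with a low p than the share over all genes is therefore partly built in and no independent evidence. Of 22 chromatin remodellers 14 were on the higher side (median 0.04) and 4 had an unadjusted p under 0.05, all on that side (2.28% of all genes), with *Chd8* and *Cfdp1* among them. Splicing and paraspeckle proteins were split evenly, 12 and 12 of 24. Synaptic adhesion genes, the class of *Clstn3*, were on the higher side in 9 of 16 (median 0.02). *Clstn3* was the 1 of 16 with an unadjusted p under 0.05 (2.52% of all genes on the lower side). Endolysosomal tethering genes included *Vps39* and, on the higher side, *Rab5c*, a GTPase of early endosomes (0.71 ± 0.27), with 7 of 17 higher. Of 10 tested O-glycosylation enzymes 6 were on the lower side, led by *Galnt1* and *St3gal1*, a sialyltransferase (-0.25 ± 0.11). Of 12 class I and interferon genes 8 were on the higher side (median 0.10). *RT1-S3* and *Irf7*, a transcription factor of the interferon response (0.57 ± 0.24), had an unadjusted p under 0.05 (2.28% of all genes on that side).

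Markers of astrocytes were on the lower side in 10 of 14, with a median of -0.11 that was -0.05 after quantile normalization and -0.06 without ZR rat 13. Of these, 4 had an unadjusted p under 0.05 (2.52% of all genes): *Aldh1l1* (-0.26 ± 0.10), *Aldoc* (-0.16 ± 0.07), *S100b* (-0.18 ± 0.08) and *Gjb6*, which is also in the glucocorticoid list. Of ependymal and tanycyte markers 7 of 10 were on the lower side (median -0.10, and -0.05 without ZR rat 7). *Vim*, the intermediate filament of these cells and of vessels and meninges, had signals of 1907, 2096, 2228 and 1947 in ZRPF and 1613, 1556, 1507 and 1798 in ZR, without overlap (-0.34 ± 0.10), and the cilia gene *Drc12* stood at -0.34 ± 0.16. *Sox2*, a progenitor factor in the same list, stood at 0.27 ± 0.08. Choroid plexus markers, whose signals summed over 8 genes ran from 7297 to 34763 in ZRPF and from 7030 to 33477 in ZR, were on the lower side in 6 of 8 (median -0.16). This count rested on single rats: it was 2 of 8 without ZRPF rat 5 or ZR rat 7 and 3 of 8 without ZRPF rat 6 or ZR rat 13, with medians of 0.04 to 0.09, and 8 of 8 without ZRPF rat 2.

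Meningeal and mural markers were on the lower side in 9 of 12 (median -0.13, and -0.08 without ZRPF rat 6 or ZR rat 7), among them *Lum*, the proteoglycan lumican (-0.31 ± 0.15). Endothelial markers were on the higher side in 10 of 14, led by *Egfl7* (0.53 ± 0.23), and of 15 myelin markers 9 were lower (median -0.04, and 0.01 without ZR rat 7), with *Sox10*, the master factor of oligodendrocytes, at -0.27 ± 0.11. Neuronal markers were at a median of 0.00 over 14 genes. The red cell gene *Hbb*, read by a probe set that can bind its near-identical copies, had signals of 4104, 3931, 3239 and 4334 in ZRPF and 1502, 2776, 2785 and 3904 in ZR, with ZR rat 7 lowest (-0.58 ± 0.18). The part of the unequal choroid plexus in these values was tested with the mean log2 deviation of its markers as a covariate. *Clstn3* then stood at -1.77 with an adjusted p of 0.0125 (limma). With the same covariate the medians were -0.11 for astrocyte, -0.09 for ependymal, -0.11 for meningeal and 0.08 for endothelial markers, *Vim* stood at -0.32 and *Hbb* at -0.56. The part of the other cell types' markers in these results was not tested.

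The genes whose profile over the 8 arrays was most like that of *Clstn3* are named by Pearson's r alone. They were *Slc35f5*, a putative nucleotide sugar transporter (r = -0.96), *Tgfbrap1*, a tethering factor of early endosomes (0.95), *Smyd4*, a methyltransferase-family gene (-0.94), *Taf6*, a subunit of TFIID (-0.94), *Iars1*, the isoleucyl-tRNA synthetase (-0.93), and *Dnajb11* (-0.93). Over all 16 arrays the same correlations were -0.77, 0.60, -0.63, -0.31, -0.71 and -0.38. The 8 arrays share their groups, so any gene that separates ZR from ZRPF correlates with *Clstn3*, and all 6 genes had groups without overlap.

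The difference between recovered and pair-fed rats was set against that between deficient and pair-fed rats at 10 days, which rests on other arrays. No probe set passed the test of the difference between the contrasts (limma, smallest adjusted p = 0.375), while 1025 (6.6%) had an unadjusted p under 0.05. For ZD against PF no probe set passed either, and 1220 (7.86%) had an unadjusted p under 0.05. For *Clstn3* this difference was -1.88 ± 0.36 with an adjusted p of 0.375, since ZD minus PF was 0.17 ± 0.26. *Vim* had the same adjusted p, with -0.34 ± 0.10 after recovery and 0.40 ± 0.10 at 10 days (difference -0.74 ± 0.14). Its PF signals were 1431 to 1634 and its ZD signals 1628 to 2349. The ZR range (1507 to 1798) overlapped with both, and the ZRPF range (1907 to 2228) lay within ZD. These levels come from experiments that also differed in the beta-actin ratio.

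*Kif5a* (-0.46 against 0.28) and *Tbc1d13*, a Rab GTPase-activating protein (-0.20 against 0.56), were next in that direction, with an adjusted p of 0.52 each. *Tbc1d13* was the 1 probe set that passed without ZRPF rat 4 (-0.89, adjusted p = 0.0349, limma). In the opposite direction were *Lyrm2*, a mitochondrial protein (0.15 against -0.38), *Cfdp1* (0.26 against -0.17), *Zfp638*, a zinc finger protein of the nucleus (0.14 against -0.41), and *Tra2a*, a splicing factor (0.10 against -0.40). *Lrrn3*, a neuronal membrane protein with leucine-rich repeats, was on the lower side in both (-0.25 ± 0.09 and -0.55 ± 0.09).

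Of the 100 genes of smallest p between ZR and ZRPF, each at its probe set of smallest p, 44 were on the higher side. No overlap was found for 61, beside 2.82% of all genes, which follows from their choice by p on the same arrays. Their direction was the same in ZD minus PF for 61. The share over all genes, 47.5%, was taken at each gene's brightest probe set, so it is not a like measure. At 10 days 5 were without overlap in the same direction and 2 in the opposite. The share over all genes without overlap there was not computed, so these counts have no background to be read against. The median size of the 100 genes was 0.36 on the log2 scale after recovery, the comparison they were chosen by, and 0.08 at 10 days. Over all 15521 probe sets the fold changes of the contrasts correlated at r = 0.02, across probe sets that are not independent replicates.

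**Figure D5:**
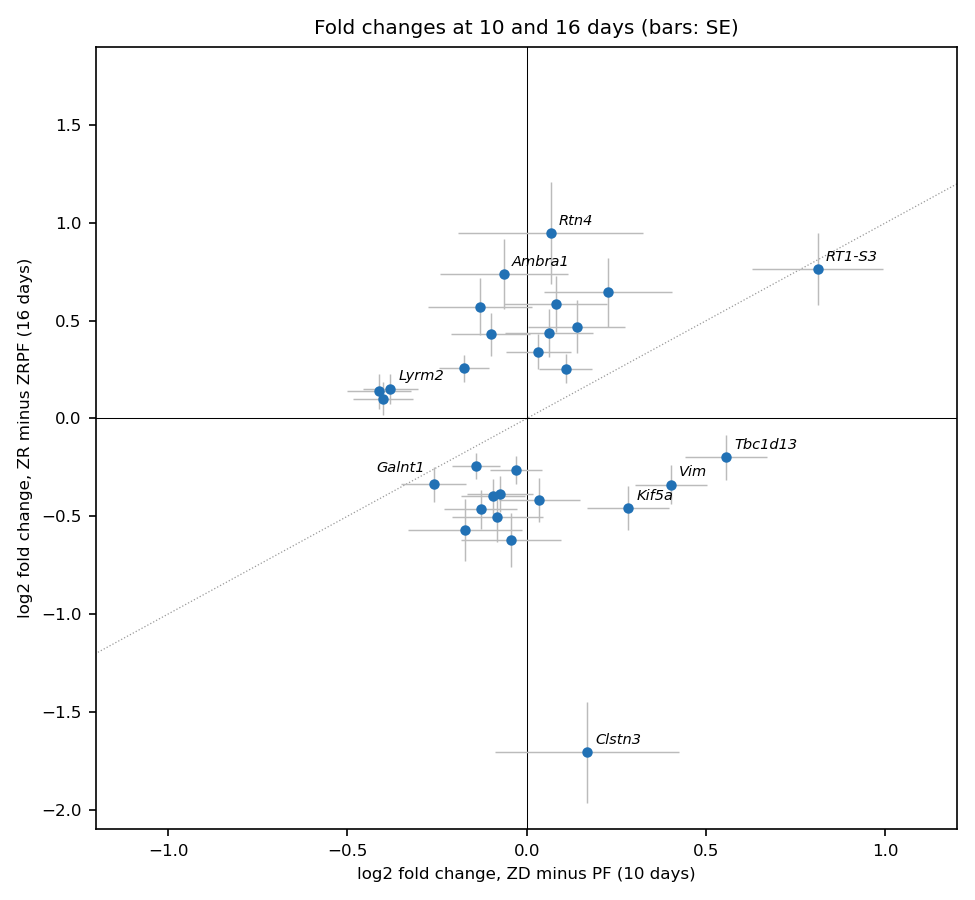
Log2 fold changes of ZD minus PF at 10 days (horizontal axis) against ZR minus ZRPF at 16 days (vertical axis) for the genes with the lowest p-values in this comparison and in the test of the difference between the contrasts, with SE bars and the line of equal values dotted. *RT1-S3* lies near that line (0.81 and 0.76), *Clstn3* far below it (0.17 and -1.71), and *Vim*, *Kif5a* and *Tbc1d13* have opposite signs in the 2 experiments.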

How the data were processed

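The samples were 16 diencephalons, 1 per rat. RNA was amplified and labelled from the 3 prime end, per the labels' protocols, and hybridised to Affymetrix rat arrays. The authors deposited linear intensities, which MAS5 had computed as 1 signal for each probe set of an array, per the submitters' processing notes. Its version and the scan batches were not given in the sources used here. MAS5 scales each array to one trimmed mean and subtracts mismatch signal, which makes dim values unstable.

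The table held 31099 probe sets. The 57 controls were left out, and log2 signals were used without further normalization. Probe sets with a mean log2 signal over 16 arrays at or above the median (7.35, a signal of 163) were tested, 15521 in all. Names came from the platform annotation, matched by gene identifier for 20758 of 20826 probe sets with 1 gene. The 436 probe sets annotated to several genes and the 9780 without any stayed in the test unnamed. In gene lists, the brightest tested probe set stood for its gene. Genes past the threshold or of smallest p in either direction are given at their probe set of smallest p. The largest differences without overlap are given at the probe set without overlap that has the largest fold change. Genes of the difference between the experiments are given at its smallest p, and those most like *Clstn3* at the most correlated probe set. All others are given at the brightest. The first of these rules that a gene met was used, with other tested probe sets given where they differ.

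One limma model (version 3.58.1, R 4.3.3) covered all 4 groups, with an intensity trend and 12 residual degrees of freedom. Two-sided p-values received the Benjamini-Hochberg adjustment over all probe sets tested, at a threshold of 0.05. Errors of fold changes are standard errors of this fit. Data simulated with independent normal noise and many planted changes served only as a check of the fit. In them 44 of 67 probe sets changed by 0.5 on the log2 scale were recovered. For changes of 1 and 2 it was 63 of 67 and 64 of 66, with 12 false calls among 183. Real probe sets vary together and single rats deviate, so these counts do not measure the power of the real comparison. Single values were compared with exact two-sided permutation tests.

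Genes were named by rule: those past the threshold, the 12 of smallest p in each direction, the 6 largest differences without overlap in each direction, up to 4 members of each of 39 lists, a set list of genes for zinc, feeding, salt and cell types, the 4 of smallest p in each direction of the difference between the experiments, and the 6 most correlated with *Clstn3*. Members and lists were chosen with earlier results of these data known. The number of arrays limits the precision. Promoter sequences were RefSeq's, in GRCr8. Alternatives were quantile normalization, median centring, other filters, an offset of 32, no intensity trend, array weights, the 8 arrays alone, a test against a log2 change of 0.2, each of the 8 arrays left out, and a choroid plexus covariate, the last chosen after seeing the data.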

Additional observations from a re-analysis of the deposited data

Results flagged for a closer look

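In 8 of 176 groups of 4 arrays examined, over the genes named above, 1 array lay far from the other 3 relative to the range of its group. Chance flags about 1 in 20 groups. ZR rat 7 was such an array for *RT1-S3* (155.4 units, the others 217.7 to 227.3), for *Rtn4* (1521, the others 2156 to 2249) and for *Rgs17* (192.7, the others 154.5 to 158.6). In each of these it was the ZR rat nearest to the ZRPF group.

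ZRPF rat 6 was such an array for *Pspc1* (1345 units, the others 879.1 to 893.8) and ZRPF rat 2 for *Fcsk* (358.0, the others 298.4 to 307.3). ZR rat 10 was high for *Igsf3* (769.9, the others 619.5 to 630.0) and ZR rat 15 for *Cartpt* (2387, the others 1924 to 1979). ZR rat 13 was low for *Slc35f5* (352.9, the others 379.0 to 381.1).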

How the results depend on the processing

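The 1 probe set past the threshold, *Clstn3*, was also the only one with median centring, an offset of 32, array weights, the choroid plexus covariate and without ZR rat 13. With quantile normalization, no filter, only the brightest 10348 probe sets (which do not include it), no intensity trend, the 8 arrays alone or a test against a log2 change of 0.2, the count was 0. Leaving out 1 array gave 0 to 9 probe sets for ZR against ZRPF and 0 to 1 for the difference between the experiments, which was 0 in every other setting run. The log2 fold change of *Clstn3* stayed between -1.89 and -1.54, with adjusted p-values of 0.0125 to 0.345. Of 88 named genes followed, 84 kept their sign in all settings run. *Slc39a10* (0.0013) turned to -0.0033 with quantile normalization and -0.0048 with array weights, and leaving out 1 array gave -0.0337 to 0.0345. Leaving out 1 array also turned *Mt2A* (-0.252 to 0.0923, positive without ZRPF rat 2 or ZR rat 7), *Npy1r* (-0.0755 to 0.0431, positive without ZRPF rat 2 or ZR rat 15) and *Ttr* (-1.8228 to 0.1954, positive without ZR rat 7). *Ambra1*, *Pspc1*, *Rtn4* and *Fbxw2* passed without ZRPF rat 6 only. Of 39 list medians, 20 kept their sign in all settings, those of the glucocorticoid, respiratory, ribosomal and importer lists included. No paired analysis was possible because the ZR and ZRPF rats share no number in the labels. What limits every value is 4 rats a group, and dim probe sets are the least precise.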

Other observations

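Probe sets of hypophysial hormone genes varied between single rats. *Pomc*, the precursor of melanocortins, was below the expression filter, with signals of 8.31, 5.44, 5.09 and 145 in ZRPF rats 2, 4, 5 and 6 and of 3.24 to 16.4 in ZR. *Cga*, the common subunit of pituitary glycoprotein hormones, had 42.1, 317, 114 and 659 in ZRPF and 140, 213, 845 and 384 in ZR rats 7, 10, 13 and 15. ZRPF rat 6 was the highest pair-fed rat for both, while ZR rat 13 was higher still for *Cga*. *Prl* (prolactin) was at 4.02 to 15.8 in ZRPF and 2.50 to 5.50 in ZR, below the filter. *Gh1* (growth hormone), also below it, was at 7.6 to 84 in ZRPF and 28 to 58 in ZR.

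Choroid plexus genes varied together: *Sostdc1*, a secreted inhibitor of BMP signalling, had 83.1, 139, 1154 and 826 in ZRPF and 82.2, 970, 112 and 441 in ZR rats 7, 10, 13 and 15. *Folr1*, the folate receptor of this epithelium, had 132, 168, 585 and 397 in ZRPF and 114, 407, 130 and 298 in ZR. The same 4 rats, ZRPF 5 and 6 and ZR 10 and 15, were high for *Ttr*, *Sostdc1* and *Folr1*.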
